A study of Mus musculus with 21 samples.

Results

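Histone H2B with glutamine in place of the glutamate E113 (E113Q) was compared with H2B with glutamine in place of the glutamate E71 (E71Q) in C3H/10T1/2, a mouse embryonic mesenchymal cell line that can form cartilage, bone, fat and smooth muscle in culture. The genes compared were those with a mean of at least 1 TPM (a transcript abundance corrected for length, with a fixed sum in each library) over the 3 E113Q and the 3 E71Q libraries, and 11862 of the 24091 genes in the files met that rule. The remaining 15 of the 21 libraries came from cells with wild-type H2B (WT) or with H2B E71K, E76K, E76Q or E113K, 3 libraries each, and are used here as reference levels. All groups were grown in DMEM with 10% FBS, and no drug or differentiation treatment is named. The labels do not say how the H2B was delivered, whether a group is 1 clone or a pool, or whether the cells keep their own H2B genes, so the substitution and other differences between the lines cannot be told apart. The series' design text speaks of independent replicates, without saying whether these are separate cell lines.

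H2B pairs with H2A, and a pair of such dimers joins the H3-H4 core to form the nucleosome around which DNA is wrapped. Glutamate E113 of H2B belongs to the acidic patch, the negatively charged face that remodellers, modifying enzymes and the H4 tail contact. Both substitutions compared here put in the same uncharged amino acid, so the groups differ in which residue was changed and not in what replaced it. Mesenchymal progenitors hold several fates open, and their state is usually read from matrix genes, secreted antagonists of BMP and Wnt signalling, and lineage transcription factors.

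Of the mesenchymal surface markers listed, 17 of 19 reached 1 TPM in at least 1 of the 6 libraries, and their summed level was 6507 to 9778 TPM in E113Q and 7920 to 10743 TPM in E71Q. Nt5e, which encodes the stromal marker CD73, was at most 0.063 TPM in all 6 libraries, and Thy1 (CD90) was at 0.418 to 1.24 TPM in E71Q. Ptprc, the pan-leukocyte marker, and Pecam1, an endothelial marker, did not pass 0.24 TPM in any of the 6 libraries, and Epcam did not pass 0.095 TPM. The summed level of 21 epithelial genes was 18.4 to 67.8 TPM in E113Q and 470.1 to 1748 TPM in E71Q, where nearly all of it came from Slurp1, Krt14 and Wfdc12, while Krt5, Krt8 and Krt18 stayed below 1 TPM. One library in each group stood apart from its mates. E113Q replicate 3 correlated with its mates at 0.941 to 0.942 across genes, against 0.961 between those mates, and E71Q replicate 1 carried 21.2% of its TPM on the single locus Mir6236, against 9.90% and 5.47% in its mates. The median SD across genes was 0.17 in E113Q, 0.22 in E71Q and 0.075 in WT on the log2 scale, so this pair had wider spread between libraries than WT. TPM holds no number of reads, so depth is unknown and no counting error can be given.

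Between the groups 1467 genes, 12.4% of those tested, were called, which here means an adjusted p below 0.05 in limma's moderated test on log2(TPM + 1) with Benjamini-Hochberg adjustment over all genes tested. E113Q was higher for 852 of them (7.18% of genes tested) and lower for 615 (5.18%). At least a 2-fold difference as well as the call was found for 844 genes, 7.12% of those tested. The 3 libraries of each group did not overlap for 3897 genes, or 32.9%. With Mir6236 left out of the totals the split turned to 1083 higher and 1429 lower. Without E113Q replicate 3 and E71Q replicate 1 the count rose to 5686 (47.9%), of which 2952 were higher (24.9%) and 2734 lower (23%). There 1464 of the 1467 calls were made in the same direction. The libraries left out were picked from these same values. E113Q replicate 3 correlated with E71Q libraries at 0.913 to 0.925, against 0.891 to 0.907 for its mates. That fit is therefore no independent check of the calls. Leaving out one library at a time gave between 662 and 2577 calls. Among the 163 called genes that are named below or share their naming rule, 101 kept the call in each of these 6 fits. Where a call was lost, the highest adjusted p over the 6 fits is given beside the gene as its leave-out adjusted p. Losses followed the removal of E113Q replicate 1 or 2 or E71Q replicate 2 or 3 for 50 to 57 of the 163 genes each, of E71Q replicate 1 for 16 and of E113Q replicate 3 for 7. No fold change of these genes changed sign.

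The genes with the largest differences were low in one group and abundant in the other. They were picked among called genes with at least 5 TPM in the higher group and no overlap between the groups. Their separation therefore follows from the rule. Nov (chr15:54745910-54753762 on GRCm38), which encodes the matricellular signalling protein CCN3, was at 1231, 1244 and 533 TPM in E113Q replicates 1 to 3 and at 10.9, 9.28 and 13.3 TPM in E71Q. The lowest E113Q library was still far above the highest E71Q library, and the log2 fold change was 6.28 ± 0.33 (SE, n = 3 and 3, limma adjusted p = 6.48e-05). Hs6st2, a sulfotransferase that modifies heparan sulfate, was at 69.4, 74.6 and 62.6 TPM against 0.318, 0.276 and 0.397 TPM (log2 fold change 5.71 ± 0.14). Thy1, the surface glycoprotein CD90, was at 77.2, 71 and 134 TPM in E113Q and at 0.418, 1.23 and 1.24 TPM in E71Q (5.57 ± 0.29). Here E113Q replicate 3, the library that departs from its mates, was the highest of the 6. Grem1, which encodes the secreted BMP antagonist gremlin, was at 78.1, 73.8 and 17.1 TPM against 0.639, 0.0823 and 0.177 TPM (5.22 ± 0.54). In that gene replicate 3 was the lowest E113Q library.

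Rspo3, a secreted enhancer of Wnt signalling, was at 30.0, 32.3 and 41.1 TPM in E113Q and listed at 0 in all 3 E71Q libraries. The E113Q values varied little, and the WT mean was also low, at 0.175 TPM. Others at the top of the higher side were Arl6ip1 (endoplasmic reticulum membrane shaping), Atp1b1 (a sodium pump subunit), Anpep (aminopeptidase N, CD13), Cdh11 (the mesenchymal adhesion molecule cadherin 11), Il1rn (the interleukin 1 receptor antagonist), Aspn (the matrix proteoglycan asporin) and Cdo1 (cysteine dioxygenase), with log2 fold changes of 6.10, 5.56, 5.40, 5.40, 5.22, 5.21 and 5.16. Mir7655 and Snord35a completed the 14 largest, at 5.36 and 5.16. Both are short loci, and which RNA gave their reads cannot be told from these values. All 14 were called in each fit that left out 1 library.

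On the lower side Krt14, a basal keratin, was at 0.460, 0.159 and 0.0985 TPM in E113Q and at 363, 40.8 and 40.8 TPM in E71Q. E71Q replicate 1 was several times its mates, and the log2 fold change was -6.13 ± 0.78 (limma adjusted p = 0.00273). Rhox5, a homeobox gene of the X chromosome known mainly from reproductive tissues and placenta (chrX:37754608-37808878), was at 13.1, 12.8 and 12.8 TPM against 368, 553 and 583 TPM (-5.15 ± 0.19). The E113Q libraries were nearly equal, and the WT mean was 28.3 ± 1.42 TPM (SD, n = 3), close to E113Q. Slpi, a secreted leukocyte protease inhibitor, was at 22.0, 25.4 and 18.5 TPM against 312, 668 and 648 TPM (-4.50 ± 0.30). Serpinb7, another protease inhibitor, was at 0.327, 0.508 and 0.105 TPM against 47.3, 26.04 and 29.1 TPM (-4.71 ± 0.25). Tcf7, the transcription factor TCF1 of the Wnt pathway, was at 3.18, 13.3 and 25.3 TPM against 227, 163 and 272 TPM (-4.22 ± 0.61). The E113Q libraries of Tcf7 differed among themselves by more than those of Rhox5 or Slpi. Wfdc12 and Slurp1, secreted proteins of squamous epithelia, fell on the same side at -4.96 and -4.68, as did the short loci Snord38a and Mir1306, both listed at 0 in the 3 E113Q libraries. Eln (elastin), Bglap2 (an osteocalcin gene) and the cartilage genes Cytl1, Cnmd and Col9a1 completed the 14 and are described with their families.

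**Figure D1:**
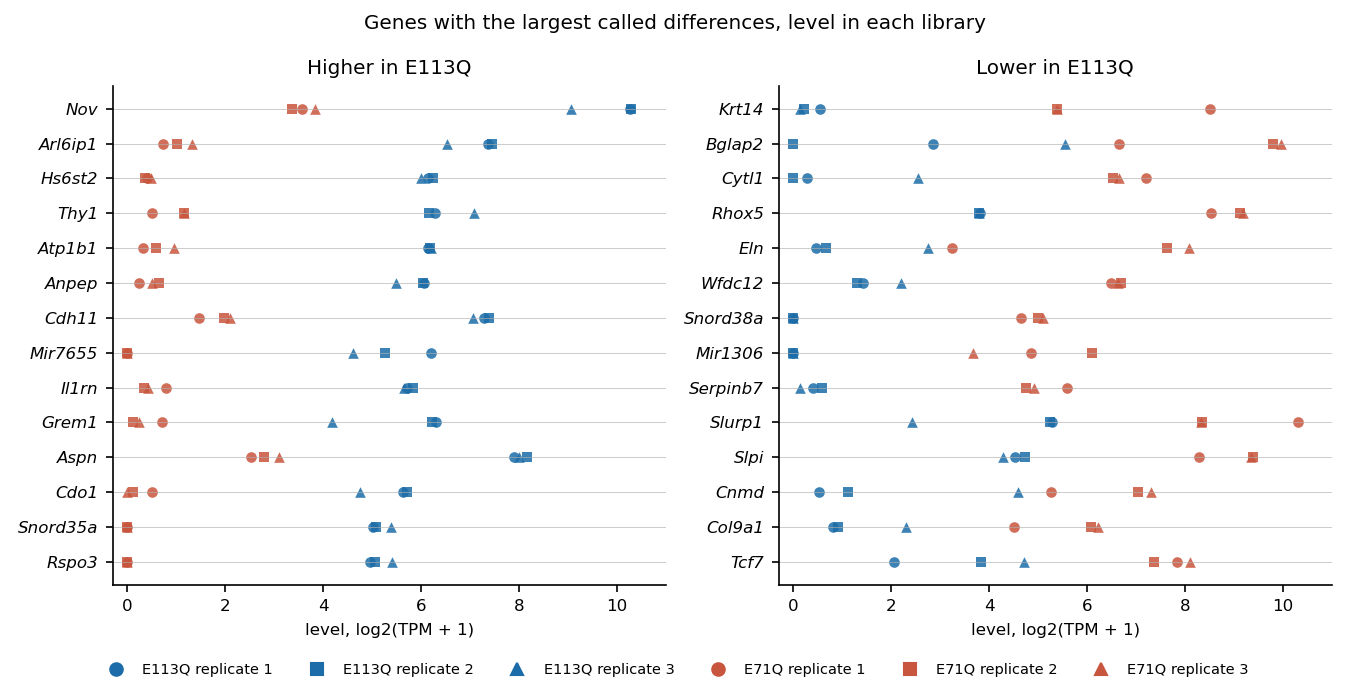
Level of the 14 genes with the largest called difference in each direction, as log2(TPM + 1) on the horizontal axis, with 1 point for each E113Q library (blue) and E71Q library (red) and the replicate number as the marker shape. Only genes without overlap between the groups could be chosen. Nov reaches 1244 TPM in E113Q against at most 13.3 TPM in E71Q, and E71Q replicate 1 lies between the groups' other libraries for Eln and Cnmd.

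WT libraries placed these differences on both sides. Among the 852 genes higher in E113Q, the WT mean lay between the 2 mutant means for 459, above both for 261 and below both for 132, and it was nearer to E113Q for 504. Of the 615 genes lower in E113Q, it was below both for 276, between them for 268 and above both for 71, and nearer to E113Q for 435. Arl6ip1 at 169 TPM, Thy1 at 66.0 TPM and Grem1 at 51.9 TPM had WT means close to E113Q, while the WT means of Hs6st2 (2.09 TPM), Il1rn (2.27 TPM) and Rspo3 were close to E71Q. WT entered no test of this pair.

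Gene lists were read as counts of called members beside the shares of 7.18% higher and 5.18% lower among all genes tested, whose median log2 fold change was 0.08. Some genes stand in more than 1 list (35 in all). The amino acid response, in which uncharged transfer RNA or unfolded protein stress raises translation of the transcription factor ATF4 and ATF4 then switches on amino acid transporters, synthesis enzymes and transfer RNA synthetases, had the largest share called of the lists with at least 10 tested members. In E113Q 23 of its 34 tested members were higher and none was lower, with a median log2 fold change of 0.67. The groups did not overlap for 30 members with E113Q higher and for 1 with E71Q higher. After median-ratio rescaling, which called 22.9% of all genes (11.5% higher, 11.4% lower), the counts were 26 and 1, and without the pair of libraries that stand apart they were 29 and 3. The median level of the list, set against its 6-library mean, was 0.44, 0.37 and 0.34 in E113Q and -0.52, -0.33 and -0.25 in E71Q on the log2 scale. The libraries that stood apart therefore lay with their own groups on this list.

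Among its members, Slc7a5, the large neutral amino acid transporter LAT1, was at 239, 155 and 154 TPM in E113Q and at 43.3, 34.5 and 16.2 TPM in E71Q, with a log2 fold change of 2.58 ± 0.36 (limma adjusted p = 0.00404). Cth, which makes cysteine from cystathionine, was at 7.42, 8.75 and 7.54 TPM against 1.43, 1.11 and 1.42 TPM (1.94 ± 0.17). Aldh1l2, a mitochondrial folate enzyme, was at 63.1, 62.7 and 46.5 TPM against 15.3, 12.9 and 14.7 TPM (1.92 ± 0.17), and Vldlr, a lipoprotein receptor, at 8.47, 8.41 and 11.6 TPM against 1.19, 1.18 and 1.23 TPM (2.24 ± 0.18). Each of these 4 kept its call in every fit that left out 1 library. Atf4 itself was at 371, 375 and 365 TPM against 201, 305 and 335 TPM, a log2 fold change of 0.43 ± 0.20 that was not called (limma adjusted p = 0.20). Slc1a5, the neutral amino acid exchanger, had the opposite sign at -0.71 ± 0.19 and was also not called (0.0543). Members of the serine and one-carbon branch and the CHOP pathway were named after their values were seen. Ddit3 (CHOP) was at 228, 233 and 224 TPM against 78.9, 91.0 and 87.8 TPM, Trib3 at 49.7, 49.4 and 60.6 TPM against 22.9, 20.4 and 20.2 TPM, and Mthfd2 at 69.9, 67.5 and 68.9 TPM against 23.8, 30.6 and 30.3 TPM.

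**Figure D2:**
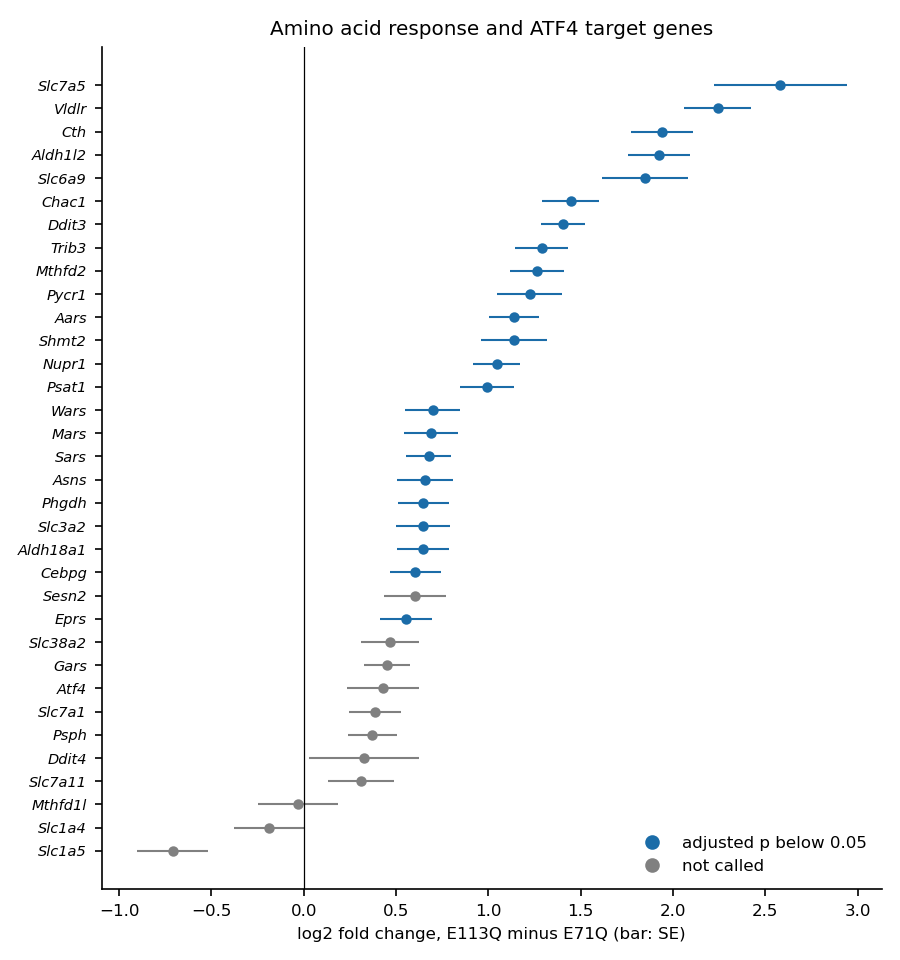
Log2 fold change of E113Q minus E71Q with its SE for the 34 tested genes of the amino acid response list, called genes in blue and others in grey. The 23 called genes lie to the right of 0, from Eprs to Slc7a5 at 2.58, and Slc1a5 lies farthest to the left at -0.71.

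The letters TGATGNAA (TTNCATCA on the other strand), which match the composite site bound by ATF4 with C/EBP partners, were searched on both strands in RefSeq promoter windows of GRCm38.p6, from 250 bases before to 50 bases after each transcript start. They occurred for 10 of the 29 tested members with a window (34.5%) and for 1219 of 27025 genes (4.51%), or 1304 of all 32851 windows (3.97%). The list was drawn up as amino acid response genes and ATF4 targets. A share above that of all genes can therefore come from its choice and says nothing about this pair. Within the list they occurred for 7 of 19 higher genes (36.8%) and 3 of the 10 others (30%). The stretches around the match are shown for 4 higher members, chosen after their values were seen, because they let the letters be read beside genes that moved together. They run 5′ to 3′ on the gene's strand, with the match in capitals, and end before or at the transcript start.
Chac1 (chr2:119351009-119351098, plus strand): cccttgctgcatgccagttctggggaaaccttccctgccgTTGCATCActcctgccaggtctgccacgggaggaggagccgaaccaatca
Pycr1 (chr11:120643802-120643891, minus strand): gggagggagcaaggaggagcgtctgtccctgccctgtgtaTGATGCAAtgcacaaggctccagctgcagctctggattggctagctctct
Nupr1 (chr7:126625531-126625620, minus strand): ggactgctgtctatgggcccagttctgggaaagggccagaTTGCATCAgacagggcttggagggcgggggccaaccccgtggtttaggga
Asns (chr6:7693210-7693272, minus strand): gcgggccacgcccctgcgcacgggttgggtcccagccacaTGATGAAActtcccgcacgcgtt
Chac1, a glutathione-degrading enzyme, was at 40.3, 32.4 and 39.4 TPM in E113Q and at 14.7, 13.1 and 11.5 TPM in E71Q. Pycr1, which makes proline, was at 44.0, 39.5 and 36.1 TPM against 20.5, 13.7 and 15.9 TPM, and Nupr1, a stress-induced chromatin protein, at 209, 208 and 245 TPM against 101, 106 and 112 TPM. Asns, asparagine synthetase, was at 183, 178 and 149 TPM against 125, 98.1 and 100.2 TPM. In each of the 4 every E113Q library was above every E71Q library, with log2 fold changes of 1.45, 1.22, 1.04 and 0.66. A match is a description of the letters, and binding was not measured.

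Cytosolic ribosomal protein genes had many higher calls on the deposited scale and few after rescaling, where their median difference stayed positive. Of 79 tested, 29 (36.7%) were called higher and none lower, the median log2 fold change was 0.32, and the groups did not overlap for 72 with E113Q higher. After median-ratio rescaling 7 were called (8.86%), all higher, which is below the 11.5% of all genes called higher on that scale. The rescaled median log2 fold change was 0.26, beside 0.02 for all genes tested. Without the pair of libraries that stand apart 60 were higher (75.9%), beside 24.9% of all genes. Rps12 was at 6994, 6323 and 6126 TPM in E113Q and at 4225, 3598 and 3978 TPM in E71Q (log2 fold change 0.72 ± 0.10, limma adjusted p = 0.00326), and Rpl13 was at 3387, 3199 and 3230 TPM against 2190, 2041 and 2040 TPM (0.65 ± 0.08). WT means were 7513 ± 328 TPM and 2891 ± 109 TPM (SD, n = 3). No member of the respiratory chain (76 tested, median -0.05) or the proteasome (31 tested, median 0.12) list was called by limma in this pair, with 2 higher and 1 lower at an unadjusted p below 0.05 in the first and 2 higher in the second. Without the libraries that stand apart 31 respiratory chain members were lower and 2 higher.

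Cartilage genes ran the other way. Of 19 tested members of the cartilage matrix and chondrocyte list, 8 were lower in E113Q and none was higher, with a median log2 fold change of -2.16. Cytl1, a cytokine-like protein made by chondrocytes, was at 0.217, 0 and 4.86 TPM in E113Q and at 146, 90.9 and 99.2 TPM in E71Q (-5.84 ± 0.62, limma adjusted p = 0.00116). Col9a1, a chain of cartilage collagen IX, was at 0.752, 0.876 and 3.91 TPM against 21.7, 66.6 and 73.7 TPM (-4.27 ± 0.55). Hapln1, the link protein that fixes aggrecan to hyaluronan, was at 0.251, 0.231 and 2.79 TPM against 17.1, 29.2 and 35.9 TPM (-3.92 ± 0.47). Cnmd (chondromodulin) was at 0.447, 1.16 and 22.9 TPM against 37.2, 130 and 158 TPM (-4.46 ± 1.05, leave-out adjusted p = 0.13). In all 4 genes E113Q replicate 3 was the highest of its group and in the last 3 E71Q replicate 1 was the lowest of its own. The list's median level shows the same pattern, at -1.29, -1.60 and 0.07 in E113Q and 0.06, 1.19 and 1.39 in E71Q, so the outlying library of each group met the other at nearly the same level. Without these libraries 18 of the 19 genes were lower. Sox9, the master regulator of chondrocytes, was at 103, 104 and 147 TPM against 146, 171 and 196 TPM, overlapped between groups and was not called (-0.54 ± 0.19, limma adjusted p = 0.113).

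Other matrix genes were divided. Small leucine-rich proteoglycans, which bind collagen fibrils and sequester growth factors, split evenly, with 3 of 10 higher and 3 lower. Aspn was at 236, 285 and 255 TPM in E113Q and at 4.77, 5.88 and 7.59 TPM in E71Q, and Ogn (osteoglycin) was at 373, 410 and 462 TPM against 28.6, 87.8 and 107 TPM (2.66 ± 0.44). Dcn (decorin) was at 35.1, 34.9 and 56.4 TPM against 228, 416 and 507 TPM (-3.12 ± 0.32), and Fmod (fibromodulin) was lower at -3.41 ± 0.70 (leave-out adjusted p = 0.092). Members of 1 family thus differed by many fold in opposite directions between the same libraries. Among 18 collagens outside cartilage 2 were higher and 4 lower, and 14 were lower without the libraries that stand apart. Col18a1, the basement membrane source of endostatin, was higher at 2.47 ± 0.18, and Col6a3, Col16a1 and Col28a1 were lower at -1.76 ± 0.14, -1.61 ± 0.14 and -2.14 ± 0.19. Col1a1, the main fibrillar collagen chain, was at 2021, 1866 and 1686 TPM against 1095, 924 and 987 TPM (0.89 ± 0.11, limma adjusted p = 0.00291).

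Elastic fibre genes had 6 of 16 lower and none higher. Eln was at 0.372, 0.577 and 5.68 TPM in E113Q and at 8.46, 199 and 270 TPM in E71Q (-5.04 ± 1.26, adjusted p = 0.0417, leave-out adjusted p = 0.16). E71Q replicate 1 was nearer to E113Q replicate 3 than to its mates. Fbn1 (fibrillin 1) showed no such library, at 32.2, 31.6 and 30.9 TPM against 89.1, 94.0 and 100.2 TPM (-1.55 ± 0.12). Lox, which cross-links elastin and collagen, was lower at -0.92 ± 0.13, and the microfibril gene Mfap5 at -1.92 ± 0.22. Matricellular and adhesive glycoproteins had 6 of 26 higher, led by Nov, and 3 lower. Postn (periostin) was at 108, 121 and 172 TPM against 5.45, 23.0 and 29.0 TPM (2.98 ± 0.54), Smoc2 was higher at 3.35 ± 0.39, and the laminin chain gene Lamb3 was lower at -3.22 ± 0.27. Matrix proteases and inhibitors had 8 of 22 higher and 4 lower. Adamts1, an aggrecan- and versican-cleaving protease, was at 199, 207 and 111 TPM against 15.8, 28.6 and 33.8 TPM (2.69 ± 0.34), with Adam19, Plau (urokinase) and Adamts2 (procollagen N-proteinase) higher at 2.42, 2.36 and 2.11. In the hyaluronan list of 9, the synthase genes Has1 (-3.11 ± 0.31) and Has2 (-1.01 ± 0.20, leave-out adjusted p = 0.10) were lower, and the hyaluronan-binding Tnfaip6 (2.21 ± 0.20) and Ptx3 (1.32 ± 0.23) were higher.

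**Figure D3:**
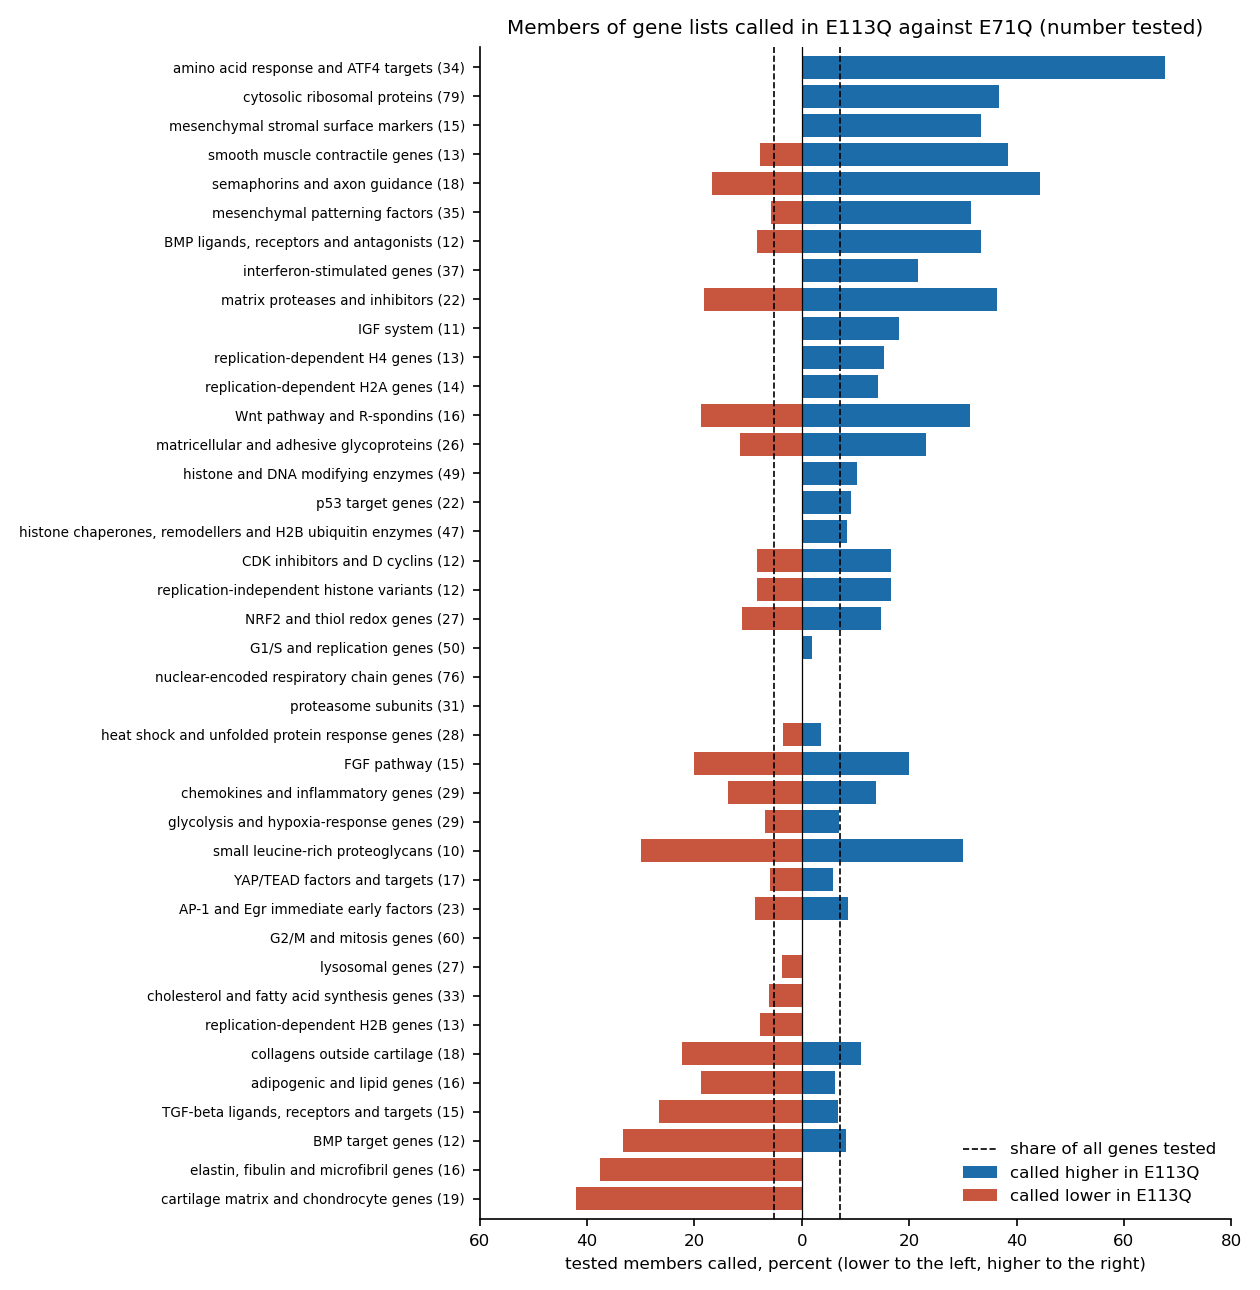
Percent of tested members called higher (blue, to the right) or lower (red, to the left) in E113Q for the lists with at least 10 tested members, with the number tested in brackets and dashed lines at the shares among all genes tested, 7.18% and 5.18%. The amino acid response list has 23 of 34 higher, the cartilage list 8 of 19 lower, and the G2/M list none called.

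Wnt genes differed at the level of ligand enhancers, receptor and effector. Of 16 tested, 5 were higher and 3 lower. Rspo2, like Rspo3 an R-spondin, was at 222, 232 and 257 TPM in E113Q and at 9.69, 35.6 and 39.1 TPM in E71Q (3.25 ± 0.47). Lgr4, a receptor for R-spondins, was lower, at 38.03, 38.99 and 49.98 TPM against 133, 170 and 185 TPM (-1.91 ± 0.18), as was Tcf7. So both R-spondin genes were higher where their receptor gene and this effector were lower.

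BMP ligands, receptors and antagonists had 4 of 12 higher, with Grem1 first, and 1 lower, the pseudoreceptor gene Bambi (-1.88 ± 0.21). Rgmb, a co-receptor, and Bmper, a secreted modulator, were higher by 0.97 and 0.67, with leave-out adjusted p of 0.13 and 0.15. Of 12 BMP target genes 4 were lower and 1 higher. Id1 was at 159, 145 and 92.9 TPM against 272, 331 and 362 TPM (-1.30 ± 0.22, leave-out adjusted p = 0.053), Atoh8 was lower at -0.92 (leave-out adjusted p = 0.072), and Dlx5 was higher at 0.81 (leave-out adjusted p = 0.096). The TGF-beta list had 1 of 15 higher, Eng (the co-receptor endoglin, 2.25 ± 0.17), and 4 lower, among them the ligand subunit gene Inhba (-0.90, leave-out adjusted p = 0.090).

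In the FGF list 3 of 15 were higher and 3 lower. Fgfr3 was at 0.674, 0.859 and 1.28 TPM in E113Q and at 16.2, 14.5 and 16.2 TPM in E71Q (-3.11 ± 0.17), and the transcription factor gene Etv1 was higher at 1.49 ± 0.24. Of 7 Notch genes 2 were higher. Notch3, a receptor of mural cells, was at 8.45, 8.38 and 3.15 TPM against 0.104, 0.0595 and 0.0319 TPM (2.75 ± 0.34), and Rbpj was higher at 1.28 (leave-out adjusted p = 0.087). Retinoic acid genes had 1 of 6 higher and 3 lower. Dhrs3, which reduces retinaldehyde to retinol, was at 1.21, 2.12 and 2.81 TPM against 45.9, 41.0 and 41.5 TPM (-3.88 ± 0.21), and the carrier gene Crabp2 was at 26.1, 27.0 and 25.1 TPM against 3.96, 5.27 and 2.64 TPM (2.49 ± 0.21). The IGF list had 2 of 11 higher, Igfbp5 (3.42 ± 0.66, leave-out adjusted p = 0.068) and Pappa2 (1.80 ± 0.41, leave-out adjusted p = 0.075). Hedgehog genes (8 tested) had no called member in limma's test, with 1 higher and 2 lower at an unadjusted p below 0.05. None of the 9 Hox cluster genes, which keep a cell's positional identity, was called either, with 2 higher and 1 lower at an unadjusted p below 0.05.

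Semaphorins and axon guidance genes, which also direct the migration of mesenchyme, had 8 of 18 higher and 3 lower. Sema3a was at 24.7, 23.9 and 10.6 TPM in E113Q and at 0.375, 0.472 and 0.676 TPM in E71Q (3.70 ± 0.32), and the ephrin gene Efnb2 was higher at 1.94 ± 0.26. Sema3b was at 8.45, 9.43 and 12.8 TPM against 53.1, 51.1 and 52.9 TPM (-2.27 ± 0.17), and Sema3c was lower at -1.86 ± 0.27. Class 3 semaphorins therefore differed in both directions. Mesenchymal patterning transcription factors had 11 of 35 higher and 2 lower. Tbx1, a T-box factor of the pharyngeal arches, was at 15.9, 15.7 and 13.6 TPM against 0, 0 and 0.080 TPM (3.97 ± 0.17, limma adjusted p = 2.48e-05). Pax3, Sim2 and Osr2, developmental factors of the neural crest and somite, midline and limb or palate, were at most 1.05 TPM in each E71Q library and at 3.63 to 10.3 TPM in E113Q, with log2 fold changes of 2.36, 2.35 and 2.32. The WT means of Pax3 and Sim2 were 0.157 and 0.541 TPM, near E71Q, and those of Tbx1 and Osr2 were 23.4 and 7.21 TPM.

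Lineage lists were mixed. Of 9 osteoblast genes 3 were higher and 2 lower. Runx2, the bone master regulator, was at 16.3, 18.1 and 15.6 TPM against 5.64, 6.98 and 11.5 TPM (1.02 ± 0.24, adjusted p = 0.0324, leave-out adjusted p = 0.14), and Phex and Tnfrsf11b (osteoprotegerin) were higher at 1.999 ± 0.19 and 1.52 ± 0.27 (leave-out adjusted p = 0.060 for Tnfrsf11b). Bglap2 was at 6.19, 0 and 45.5 TPM against 99.9, 890 and 999.7 TPM (-6.01 ± 1.42, adjusted p = 0.0338, leave-out adjusted p = 0.13), and Bglap was lower at -3.51 (leave-out adjusted p = 0.11). These near-identical osteocalcin copies can share reads, so how the values divide between them is uncertain. Of 16 adipogenic and lipid genes 1 was higher and 3 lower. Cebpa was at 5.04, 5.34 and 5.94 TPM against 0.520, 0.622 and 0.770 TPM (1.98 ± 0.18), and the lipid droplet gene Plin4 was lower at -1.24 ± 0.18. Pparg, the fat master regulator, was at 38.6, 42.3 and 28.3 TPM against 30.8, 27.9 and 30.5 TPM, and its groups overlapped (0.27 ± 0.17, limma adjusted p = 0.366).

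Smooth muscle contractile genes had 5 of 13 higher and 1 lower. Acta2, smooth muscle actin, was at 179, 170 and 175 TPM against 63.9, 80.9 and 80.0 TPM (1.22 ± 0.14, limma adjusted p = 0.00163), and Tpm2 was higher at 1.37 ± 0.19. Myl9 was at 4.65, 4.32 and 1.55 TPM and listed at 0 in each E71Q library, beside a WT mean of 107 TPM. Des (desmin) was lower at -1.41 ± 0.24. Mesenchymal surface markers had 5 of 15 higher and none lower, among them Thy1, Eng and Alcam (2.08 ± 0.27). In the tendon list 1 of 5 was higher, Tnmd (tenomodulin), at 3.98, 4.63 and 31.9 TPM against 0, 0.106 and 0 TPM (3.23 ± 0.67, leave-out adjusted p = 0.085). Epithelial genes had 1 of 7 higher, Cdh1 (E-cadherin, 1.31 ± 0.30, leave-out adjusted p = 0.11), and 3 lower, and the neural list 2 of 8 higher, Gabra3 (2.41 ± 0.20) and Nes (0.65 ± 0.16, leave-out adjusted p = 0.20). With Epcam, Krt8 and Krt18 at or near 0, whether other cells had any part in the epithelial values was not tested. In bulk samples a lower share of cells with a gene and less RNA per cell cannot be told apart.

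For proliferation genes E113Q replicate 3 lay apart from its mates. None of 60 tested G2/M and mitosis genes was called by limma, 13 were higher and none lower at an unadjusted p below 0.05, 59 had a positive log2 fold change, and the median was 0.98. Of all genes tested 16.8% were higher and 11% lower at that unadjusted threshold, which is the background for each such count here. Mki67, the proliferation antigen, was at 48.9, 45.7 and 13.0 TPM in E113Q and at 16.2, 14.1 and 17.2 TPM in E71Q. E113Q replicates 1 and 2 were far above E71Q and replicate 3 was below it, so the groups overlapped (0.93 ± 0.46, limma adjusted p = 0.234). The list's median level was 1.08, 1.06 and -0.68 in E113Q and -0.23, -0.71 and -0.50 in E71Q. Without E113Q replicate 3 and E71Q replicate 1 58 of the 60 were called higher. For G1/S and replication genes the counts were 1 of 50 higher (Cdt1, the licensing factor, 1.30 ± 0.32, leave-out adjusted p = 0.16) and 44 higher without those libraries. Among 12 CDK inhibitors and D cyclins 2 were higher and 1 lower. Cdkn1a (p21) was at 256, 250 and 241 TPM against 356, 328 and 324 TPM (-0.43 ± 0.11, adjusted p = 0.0453, leave-out adjusted p = 0.17), and Cdkn2c (p18) was higher at 1.45 (leave-out adjusted p = 0.072). Of 22 p53 target genes 2 were higher, Eda2r (0.98, leave-out adjusted p = 0.099) and Perp, a desmosome-associated apoptosis gene, which was at 29.4, 28.1 and 26.8 TPM against 0.161, 0 and 0.149 TPM (4.72 ± 0.15).

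**Figure D4:**
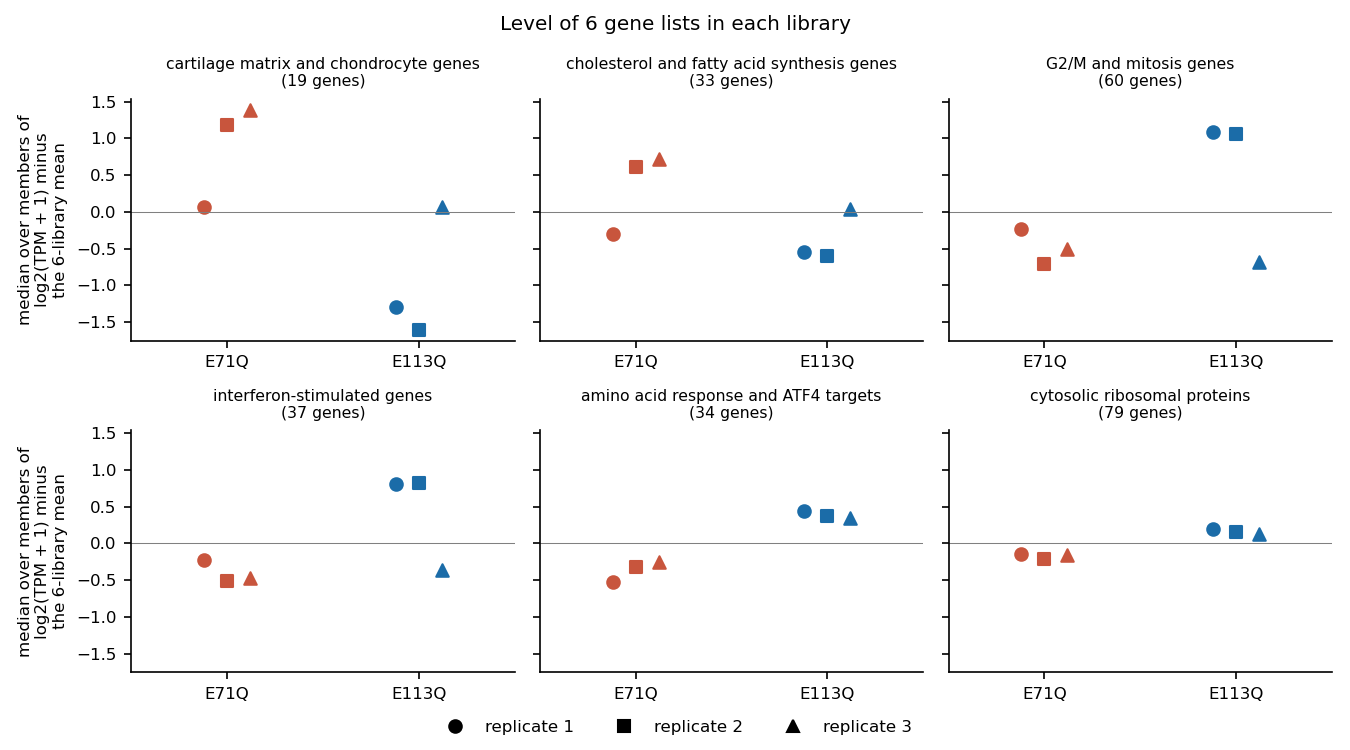
Median over list members of log2(TPM + 1) minus each gene's 6-library mean, for 6 gene lists, with 1 point for each library and the replicate number as the marker shape. The amino acid response and ribosomal lists separate the groups in every library, whereas E113Q replicate 3 sits with E71Q for the G2/M list (-0.68) and the interferon list (-0.37), and meets E71Q replicate 1 for the cartilage list (0.07 and 0.06).

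Interferon-stimulated genes had the same uneven libraries. Of 37 tested 8 were higher and none lower, the median was 0.89, and list levels were 0.80, 0.82 and -0.37 in E113Q and -0.22, -0.51 and -0.48 in E71Q. Ifih1, the cytosolic double-stranded RNA sensor MDA5, was nevertheless at 9.67, 10.2 and 4.28 TPM against 0.052, 0.0494 and 0 TPM (3.05 ± 0.31, limma adjusted p = 0.000978), and the immunoproteasome gene Psmb8 was at 2.61, 2.42 and 2.56 TPM and listed at 0 in each E71Q library. Mx2 was higher at 2.48 ± 0.58 (leave-out adjusted p = 0.13) and Psmb9 at 1.75 ± 0.30 (leave-out adjusted p = 0.057). Without the outlying libraries 36 of the 37 were higher and 1 lower. The chemokine and inflammatory list had 4 of 29 higher and 4 lower, and 15 and 5 without those libraries. Il1rn was at 51.7, 56.1 and 49.5 TPM against 0.723, 0.265 and 0.341 TPM, the interleukin 33 receptor gene Il1rl1 and the chemokine gene Cxcl5 were higher at 1.85 ± 0.24 and 1.42 ± 0.19, and complement C3 was lower at -3.12 ± 0.59 (leave-out adjusted p = 0.071).

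Cholesterol and fatty acid synthesis genes, which the transcription factor SREBP2 raises together when sterol is short, had 2 of 33 lower and none higher at a median of -0.79. Hsd17b7 was at 11.3, 12.7 and 21.6 TPM against 31.7, 61.8 and 62.7 TPM (-1.70 ± 0.33, leave-out adjusted p = 0.079) and Idi1 was lower at -1.19 ± 0.31 (leave-out adjusted p = 0.18). After median-ratio rescaling 13 were lower, and without the outlying libraries 31. Abca1, the cholesterol exporter, was lower at -1.74 ± 0.19, and the lipid carrier gene Apod was at 25.5, 25.0 and 36.2 TPM against 1.90, 2.82 and 3.49 TPM (3.00 ± 0.22); the lipid carrier list had 1 of 8 higher and 2 lower. Of 27 lysosomal genes 1 was lower, Lyz2 (-3.66 ± 0.40), whose reads can be shared with the near-identical Lyz1. Without the libraries that stand apart 18 of the 27 were lower (66.7%) and 1 higher. NRF2 and thiol redox genes had 4 of 27 higher and 3 lower, and 9 and 13 without those libraries. Mgst1, a microsomal glutathione transferase, was at 4.44, 5.59 and 3.10 TPM against 74.3, 68.7 and 68.2 TPM (-3.76 ± 0.19). Cdo1, which removes cysteine by oxidation, was at 48.5, 51.6 and 26.1 TPM against 0.416, 0.0893 and 0 TPM. The metal-binding gene Mt2 was higher at 1.66 ± 0.24.

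Replication-dependent histone lists had at most 15.4% of members called higher (H4) and 7.69% lower (H2B), beside 7.18% and 5.18% of all genes. The 18 replication-dependent H2B genes in the files summed to 289, 266 and 366 TPM in E113Q and to 301, 525 and 607 TPM in E71Q, beside 137 to 148 TPM in WT. A mutant H2B transgene would not be told from these genes, and library selection by poly(A) is not stated, so these sums do not measure the mutant protein. Of 13 tested H2B genes 1 was called, Hist1h2bc, lower at -1.29 ± 0.33 (leave-out adjusted p = 0.16). H2A genes had 2 of 14 higher, H3 genes 1 of 9 and H4 genes 2 of 13, with none lower and with reads that near-identical copies can share, and none of 4 H1 genes was called or reached an unadjusted p below 0.05. The list of 12 histone variants also holds Hist1h2bc, its 1 lower gene, and had 2 higher. H2afy2, which encodes macroH2A2, a variant of silent chromatin, was at 20.7, 23.9 and 19.6 TPM against 0.468, 0.376 and 0.377 TPM (3.99 ± 0.16, limma adjusted p = 1.58e-05). Histone chaperones, remodellers and H2B ubiquitin enzymes had 4 of 47 higher, led by the NuRD helicase gene Chd3 (1.37 ± 0.21), and histone and DNA modifying enzymes 5 of 49 higher, with Nsd1 and Hdac2 at 0.87 and 0.77 (leave-out adjusted p of 0.078 and 0.13). None of either list was lower. Their shares of 8.51% and 10.2% stood beside 7.18% among all genes, but the counts grew to 13 of 47 (27.7%) and 10 of 49 (20.4%) after median-ratio rescaling, beside 11.5%, and to 23 (48.9%) and 17 (34.7%) without the libraries that stand apart, beside 24.9%.

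With all 6 libraries the stress and immediate early lists had 3.57% to 8.70% of members called in each direction. Among all genes 7.18% were called higher and 5.18% lower. The heat shock and unfolded protein list had 1 of 28 higher (Hspb1, 1.95 ± 0.20) and 1 lower (Hsph1, -0.82 ± 0.13, leave-out adjusted p = 0.051), the glycolysis and hypoxia list 2 of 29 in each direction, and the YAP/TEAD list 1 of 17 in each. Of 23 AP-1 and Egr factors 2 were higher and 2 lower. Atf3, which ATF4 can induce, was at 7.35, 7.55 and 7.67 TPM against 0.360, 0.353 and 0.0757 TPM (2.76 ± 0.19), and Klf2 was lower at -1.34 ± 0.22. Without the libraries that stand apart lower calls rose to 12 of 28 in the heat shock list, 14 of 29 in the glycolysis list and 12 of 23 among AP-1 and Egr factors (42.9%, 48.3% and 52.2%), beside 23% of all genes. The imprinted gene list had 1 of 7 higher, Sgce, at 8.32, 8.29 and 5.47 TPM and listed at 0 in each E71Q library, and 1 lower, Peg12 (-1.97 ± 0.21). Endothelial and blood cell lists had 2 tested members each, with no call and 1 endothelial gene lower at an unadjusted p below 0.05, and no skeletal muscle gene passed the filter.

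The same residues with lysine in place of glutamine, E113K and E71K, gave a comparison whose fold changes use no library of the one above. Its calls came from a fit of 12 libraries, in which the spread was estimated from the glutamine libraries as well. The calls of the pairs are therefore not independent. Leaving out E71Q replicate 1 or 2 gave 4440 or 3773 lysine calls. Of the same 11862 genes 4229 were called (35.7%), 2500 higher (21.1%) and 1729 lower (14.6%) in E113K. This split turned to 2750 higher and 3294 lower with Mir6236 left out and to 3100 and 3201 after median-ratio rescaling. Of the 852 genes higher in E113Q 464 (54.5%) were also higher in E113K, 61 (7.16%) were lower and 327 were not called. Of the 615 lower genes 287 (46.7%) were also lower in E113K and 59 (9.59%) were higher. The interaction, which asks whether the difference is the same in the glutamine and lysine pairs, was called for 2279 genes (19.2%), including 312 of the 852 and 265 of the 615. In it the amino acid put in and other differences between the lines cannot be told apart. Both E71K replicates 2 and 3 differed from a mate. Replicate 2 carried 30.6% of its TPM on Mir6236, against 3.86% and 2.35% in replicates 1 and 3, and without it the lysine split was 1755 higher and 2245 lower and the interaction was positive for 1783 genes and negative for 928. Replicate 3 correlated with its mates at 0.940 to 0.943 across genes, against 0.973 between those mates, and without it the split was 3843 higher and 1688 lower and the interaction was positive for 1374 genes and negative for 2435. Of the 852 higher genes 415 and 505 were called higher with lysine in these fits, and of the 615 lower genes 323 and 272 were called lower.

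The largest differences shared by both amino acids were in Arl6ip1, Thy1, Atp1b1, Anpep, Grem1 and Krt14. Thy1 was at 62.6, 60.1 and 61.6 TPM in E113K and at 0, 0.0538 and 0.183 TPM in E71K, a log2 fold change of 5.86 ± 0.24 beside 5.57 for glutamine, and its interaction was -0.29 ± 0.34 (limma adjusted p = 0.60). Krt14 was at 0, 0.104 and 0 TPM in E113K and at 483, 320 and 79.1 TPM in E71K. In both pairs Thy1 was low and Krt14 high in the E71 mutant. Low Thy1 was not particular to the E71 mutants. E76Q was at 0.450, 0.622 and 0.344 TPM, whereas E76K was at 108, 101 and 108 TPM. Krt14 was at 0.459, 0.588 and 0.469 TPM in E76Q and at 8.66, 7.22 and 0.475 TPM in E76K. The E76Q means of Arl6ip1, Anpep, Grem1 and Atp1b1 were 1.37, 0.256, 2.83 and 13.6 TPM. Arl6ip1 and Atp1b1 had interactions of 0.12 ± 0.32 and -0.26 ± 0.35. Anpep differed more with lysine (7.40 against 5.40), with an interaction of -1.996 ± 0.26 (limma adjusted p = 0.000584).

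Other differences were unlike in the glutamine and lysine pairs. Ptgis, prostacyclin synthase, was at 26.4, 28.7 and 26.5 TPM in E113Q, 35.1, 60.7 and 55.5 TPM in E71Q, 50.3, 42.8 and 44.2 TPM in E113K and 0.603, 0.213 and 0.363 TPM in E71K. Its glutamine difference, -0.83 ± 0.21, had a leave-out adjusted p of 0.18. It was near silence in E71K alone of the 4 groups, and the interaction was -5.91 ± 0.28 (limma adjusted p = 3.81e-07). H2afy2 was at 7.68, 7.41 and 7.62 TPM in E113K and 17.6, 14.7 and 30.0 TPM in E71K, so that it was low in E71Q but not in E71K (interaction 5.27 ± 0.30). Perp was at most 0.161 TPM in E71Q and at most 0.157 TPM in both lysine groups, and high in E113Q alone of the 4 (4.84 ± 0.23). Mgst1 was at 41.4, 47.6 and 46.7 TPM in E113K against 16.0, 11.8 and 15.3 TPM in E71K, the opposite order to glutamine (-5.36 ± 0.26). Pparg was at 80.0, 80.4 and 91.3 TPM in E113K against 4.13, 4.10 and 4.56 TPM in E71K, with an interaction of -3.74 ± 0.22. Eln had an interaction of -5.79 ± 1.58 (adjusted p = 0.0238, leave-out adjusted p = 0.068), and the short loci Mir1306, Mir22, Snord38a and Snord72 made up the other 4 of the 6 largest. In the lysine pair neither Eln (0.75 ± 1.12, limma adjusted p = 0.63) nor Mir1306 (1.73 ± 1.09, limma adjusted p = 0.24) was called. Mir1306 was at 0, 35.5 and 0 TPM in E113K and at 0 in each E71K library.

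Several gene lists had many called interactions. The amino acid response list had 6 of 34 members higher and 10 lower in E113K against E71K, and 23 had a positive and 1 a negative called interaction. G2/M genes had 56 of 60 lower in E113K and none higher, with 56 positive interactions called, and G1/S genes had 45 of 50 lower and 1 higher, with 46. Cholesterol and fatty acid synthesis genes had 21 of 33 higher with lysine and 25 negative interactions. Cartilage genes had 9 of 19 lower with lysine as well and 1 higher, and the interaction was called for 1 in each direction. Without E71K replicate 2 the cholesterol list had 10 higher (30.3%) and 19 negative interactions (57.6%), beside 14.8% and 7.82% of all genes. In that fit 25 of 79 ribosomal protein genes had positive interactions (31.6%, beside 15.0%), against 3 with all libraries. Without E71K replicate 3 the cartilage list had 6 negative interactions (31.6%, beside 20.5%). Without that library, E113Q replicate 3 and E71Q replicate 1, picked from these same values, it had 13 (68.4%, beside 31.7%). The counts with all libraries compare with 10.1% of all genes called for a positive and 9.1% for a negative interaction.

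**Figure D5:**
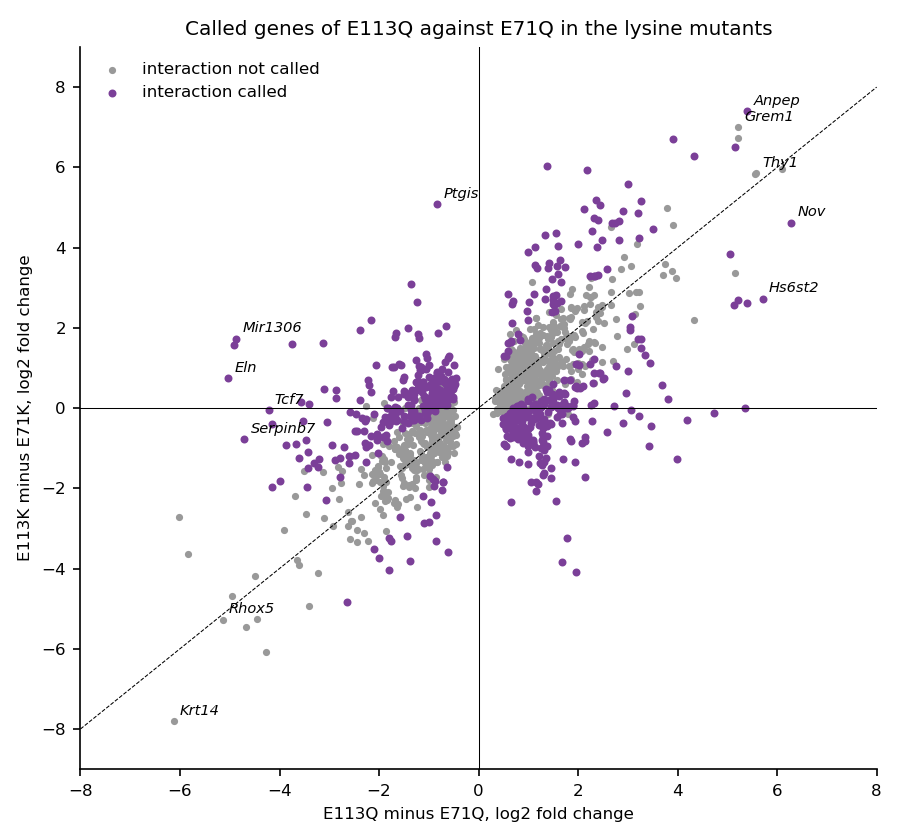
Log2 fold change of E113Q minus E71Q (horizontal) and of E113K minus E71K (vertical) for the 1467 genes called in the glutamine pair, purple where the interaction was called and grey otherwise, with a dashed line of equality. Thy1 and Krt14 lie near the line, and Ptgis, Eln and Mir1306 have opposite signs in the pairs. The lysine differences of Eln (0.75 ± 1.12) and Mir1306 (1.73 ± 1.09) were not called.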

How the data were processed

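The authors deposited a table of TPM per gene and library, with group means that were not used. The submitters' processing notes name Salmon, featureCounts 1.4.4, DESeq and genome build mm10 without saying which made the TPM. Per the labels' protocols, RNA came from an RNeasy kit and libraries from NEBNext Ultra II. Members and gene lists were chosen with earlier results of these data known.

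Values were used as log2(TPM + 1), on which fold changes of low genes are understated. The 6 libraries were fitted with limma 3.58.1 in R 4.3.3, using limma-trend (degrees of freedom: 4 residual, 3.43 prior) and Benjamini-Hochberg adjustment over 11862 genes. Genes just inside the filter were Gm20337 (1.0007 TPM), and just outside Ulbp1 (0.99865 TPM). The lysine pair and the interaction were fitted on 12 libraries. Of 56 lists (1484 genes found) only counts and medians are given. Genes named were the 14 largest called differences each way (at least 5 TPM, groups not overlapping), up to 4 called members of a list, 7 chosen genes, and the 6 largest for the interaction and the lysine pair. Positions and promoters are RefSeq GRCm38.p6, matched by Entrez identifier for 11851 genes. On simulated data of this pair and 11862 genes, 6%, 46%, 84% and 96% of genes changed 1.5-, 2-, 4- and 8-fold were recovered, with 11 false calls. Noise there was drawn independently for each gene and library, so libraries that depart as a whole from their mates were not modelled. Changes were given only to genes above a minimum level, so the recovery shares do not cover low genes. Alternatives were other pseudocounts (0.1, 5), filters, scalings, moderations, a replicate block, all 21 libraries, a 2-fold rule and libraries left out.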

Additional observations from a re-analysis of the deposited data

Results flagged for a closer look

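The difference between the residues was unlike in the glutamine and lysine pairs for 2279 genes by limma's interaction test at adjusted p below 0.05. The amino acid put in and other differences between the lines cannot be told apart here. The values below are the interaction, (E113Q minus E71Q) minus (E113K minus E71K), on the log2 scale. They are given for genes named for their size, for chosen genes and for list members with an interaction of at least 2. Of these 56 genes 51 kept the call in each of the 12 fits that left out 1 library. The exceptions were Eln, Etv4, Hist1h3g, Mir22 and Snord72, whose highest adjusted p was 0.068, 0.086, 0.054, 0.11 and 0.058, and between them the losses followed the removal of libraries of each of the 4 groups.

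Among the genes highest in E113Q the interaction was positive for Nov (1.66), Hs6st2 (2.99), Cdh11 (2.77), Mir7655 (5.36), Il1rn (2.53) and Rspo3 (2.58), so E113Q minus E71Q was larger with glutamine. It was negative for Anpep (-1.996) and Cdo1 (-1.34), which differed more with lysine. Among the genes lowest in E113Q it was negative for Eln (-5.79), Snord38a (-6.47), Mir1306 (-6.61), Serpinb7 (-3.93) and Tcf7 (-4.17). Mir22 (-6.50), Ptgis (-5.91) and Snord72 (5.53) were named for the interaction itself, and Pparg (-3.74), Mki67 (3.11) and Col1a1 (0.86) were chosen genes.

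Matrix genes with a large interaction were Col6a3 (-2.03), Fbn1 (-2.62), Smoc2 (2.03), Plau (-2.81) and Has1 (-3.59). In signalling they were Dlx5 (2.15), Pmepa1 (-2.67), Etv4 (2.60), Igfbp5 (4.35), Dhrs3 (-2.95), Rarres2 (-3.53) and Sema3b (-2.01). Lineage and surface genes were Phex (-2.08), Plin4 (-3.88), Tnmd (3.42), Ngfr (2.96), Cdh1 (2.66), Nes (2.99) and Osr2 (-2.42). Immune genes were C3 (-4.74), Cxcl5 (-2.19) and Ifih1 (3.10). The cell cycle, p53 and histone genes named were positive, namely Cdt1 (2.96), Perp (4.84), Hist1h2ae (2.60), Hist1h2ao (2.39), Hist1h3g (2.95), Hist4h4 (3.84), Hist1h4j (2.89) and H2afy2 (5.27). List members were named only if called in the glutamine pair. Over all tested members, called positive and negative interactions were 1 and 1 for H1, 3 and 2 for H2A and 3 and 1 for H2B. They were 2 and 1 for H3, 4 and 0 for H4, and 6 and 1 for histone variants. In metabolism Slc7a5 (3.18) and Cth (2.26) were positive, and Hsd17b7 (-2.71), Idi1 (-2.23), Apod (-2.59), Abca1 (-2.76) and Mgst1 (-5.36) were negative.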

How the results depend on the processing

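Of the 163 called genes named by the rules, none changed sign in any alternative fit that tested it. The number that lost the call was between 0 (without the libraries that stand apart, which were picked from these same values) and 57 (without E113Q replicate 1 or E71Q replicate 2). The filter at 5 TPM tested 130 of them, and 128 of the 163 differed at least 2-fold, so the others would not pass a 2-fold rule. Counts moved more, and the cause was not tested. For E113Q against E71Q the 1467 calls (852 higher, 615 lower) became 2512 with Mir6236 left out (1429 lower), 2882 with all 21 libraries in the fit (1780 and 1102), 2715 after median-ratio rescaling (1367 and 1348), 2721 after quantile normalization (1338 and 1383), 5686 without the libraries that stand apart (2952 and 2734) and 844 with a 2-fold rule (485 and 359). Leaving out 1 library gave 662 to 2577, with 354 to 1846 higher and 295 to 1424 lower. For the lysine pair and the interaction the libraries left out as standing apart were E113Q replicate 3, E71Q replicate 1 and also E71K replicate 3. For E113K against E71K the 4229 calls became 6761 without these libraries (4668 higher) and 1919 with the 2-fold rule (1092 and 827). Higher and lower calls there were 2750 and 3294 with Mir6236 left out, 3100 and 3201 after median-ratio rescaling and 3089 and 3179 after quantile normalization, and higher calls were 1625 to 3843 with 1 library left out. Interaction calls, 2279 as reported, became 4575 with Mir6236 left out (2392 positive, 2183 negative), 3935 with 21 libraries (1916 and 2019), 4860 after rescaling (2513 and 2347), 4870 after quantile normalization (2457 and 2413) and 5645 without the libraries that stand apart (1886 and 3759). With 1 library left out they were 1473 to 3809, with 796 to 1783 positive and 635 to 2435 negative. Deviations of libraries with the same number correlated at 0.21, -0.12 and 0.13, and those with different numbers at -0.30 to 0.22. With 3 libraries in each group these values cannot tell whether the numbers pair the samples. The fit with replicate number as a block called 2168 genes (1259 higher, 909 lower) and gave 4186 and 2381 for the lysine pair and the interaction. Array weights were not used because they could not be fitted. TPM gives no depth, so low values have no counting error.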
